A study of Mus musculus with 8 samples.

Results

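The mitochondrial protein import machinery was examined in hearts of mice lacking Ssbp1, which encodes mtSSB, the protein that coats single-stranded mtDNA. Its genes were taken from the table by name, as protein-coding genes called Tomm or Timm followed by a digit, with Timmdc1, Pam16, Dnajc15, Dnajc19, Pmpca, Pmpcb, Mipep, Immp1l, Immp2l, Chchd4, Gfer, Samm50, Mtx1, Mtx2 and Mtx3. This gave 40 genes of 55383 in the table, and 38 of them passed the filter on low values (10 or more normalized counts in 2 or more of the hearts). The rule itself uses names and no measured value, although it was set with earlier results of these data known. Total RNA of whole hearts from mice aged 5 weeks, on an inbred C57BL/6N background, was sequenced in strand-specific libraries. The control hearts (2 mice, labelled Ssbp1+/+) and the knockout hearts (2 mice, labelled Ssbp1-/-) are called replicates 1 and 2 of their group. In the study the knockouts were homozygous for a loxP-flanked Ssbp1 allele (L/L, cre) and carried Cre under the muscle creatine kinase promoter (Ckmm-cre), which acts in cardiomyocytes and skeletal muscle from midgestation, and the controls (L/L) carried the same flanked allele without Cre. Fibroblasts, endothelial cells and blood cells of a knockout heart therefore keep the gene. The sample labels mention the cross to Ckmm-cre in every case and do not say which mouse carried Cre. For the mice numbered 585H and 586H the labels contradict each other, and they entered no comparison.

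Nearly all mitochondrial proteins are encoded in the nucleus, made in the cytosol and imported as precursors. They cross the outer membrane through the TOM complex and are then handed to the SAM complex for outer membrane barrels, to the small TIM chaperones and the TIM22 complex for inner membrane carriers, to the MIA pathway for cysteine-rich proteins of the intermembrane space, or to the TIM23 complex, the PAM motor and the processing peptidases for proteins of the matrix. In cardiomyocytes, whose mitochondria fill much of the cell, the same route supplies the nuclear-encoded subunits of the respiratory chain and the factors that maintain mtDNA.

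The values are normalized counts, that is, the reads of a gene divided by 1 size factor per library. Depth was 24067849 and 19716305 reads in the controls and 25558246 and 25682093 reads in the knockouts, and mitochondrial transcripts took 62.7% and 66.7% of the reads in the controls against 58.0% and 56.2% in the knockouts. The import genes that passed the filter had 43 to 1900 reads per library behind each value. Ssbp1 itself, counted over the whole gene, stood at 177 and 216 normalized counts in the controls and at 170 and 163 in the knockouts (log2 fold change -0.23, SE 0.16, limma adjusted p = 0.890), and leaving out control replicate 1 gave a log2 fold change of -0.37, leaving out control replicate 2 one of -0.089. A count over the whole gene also reads transcripts without the deleted exon and transcripts of cells without Cre, and so is a weak check of the labels. Summed cardiomyocyte markers overlapped between the groups, at 1350950 to 1455040. Summed fibroblast markers ran from 12243 to 12864 in control and from 9449 to 11488 in knockout hearts. The sum of skeletal muscle markers was 2819 to 4261 in control and 1668 to 2684 in knockout hearts. Of these 6 markers 1 passed the filter on low values, and Myh1 was at 0. The erythroid sum was 41866 in knockout replicate 2 against 14398 to 18944 in the other hearts. Summed endothelial, mural and macrophage markers overlapped between the groups, with median log2 fold changes of 0.055, -0.26 and -0.21. Of 37 cell type markers tested 0 passed the adjusted limma test and 2 had an unadjusted limma p under 0.05. These were 1 macrophage and 1 skeletal muscle marker, both lower in the knockouts. The part of these values in the results below was not tested, and in bulk hearts fewer cells of a type and less RNA per cell cannot be told apart.

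The import genes as a whole had slightly higher levels in knockout than in control hearts, and no single gene passed the test. Of the 38 genes, 0 were called higher and 0 lower by limma at an adjusted p under 0.05, where 0.0757% of all genes tested were called higher and 0.0413% lower. At an unadjusted p under 0.05 there were 4 genes, Timm10, Timm21, Timm8a1 and Timm9, all with higher means in the knockouts. They made up 10.5% of the import genes, against 3.08% of all genes on the higher side and 3.02% on the lower side. edgeR and DESeq2 on the recovered reads also called 0 import genes and gave 4 and 3 at an unadjusted p under 0.05. Of all 14522 genes edgeR gave 467 higher and 421 lower at that threshold, and DESeq2 gave 256 higher and 270 lower. In limma the count of import genes was 3 with a near-identical pseudogene added to Timm8a1 (described with that gene), where 447 of 14521 genes were higher and 439 lower. The count of import genes fell when either knockout heart was left out, although a group of 1 heart is then assumed to vary like the other.

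A small positive difference was common across the machinery. Of the 38 genes 31 (81.6%) had a log2 fold change above 0, against 50.5% of all genes tested. The 2 knockout hearts were both above the 2 control hearts in 17 genes (44.7%) and both below in 3 (7.89%), while over all genes these shares were 18.1% and 17.5%. The 3 genes with lower values in both knockouts were Timm22, Mtx3 and Timm10b. The median log2 fold change was 0.13 over the import genes and 0.0024 over all genes, and without the 4 genes at an unadjusted p under 0.05 it was 0.12. Measured in each heart against the mean of the controls, the median import gene stood at -0.035 and 0.035 in control replicates 1 and 2 and at 0.14 and 0.099 in knockout replicates 1 and 2 on the log2 scale. The control values mirror each other by construction, since each control enters that mean and the knockouts do not. The genes are not replicates of a condition, and these shares and medians are descriptions with no test.

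**Figure D1:**
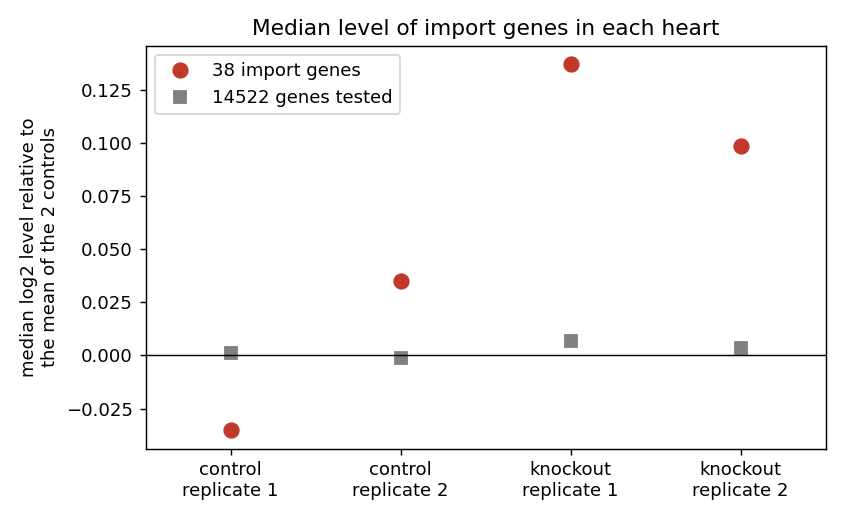
Median log2 level of the 38 import genes (red circles) and of the 14522 genes tested (grey squares) in each of the 4 hearts, relative to the mean of the 2 controls. The import genes stand at -0.035 and 0.035 in the controls and at 0.14 and 0.099 in the knockouts, while the median of all genes stays within 0.00703 of 0. The control values mirror each other by construction, since each control enters the mean.

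For most genes the hearts, with variances that limma draws towards a trend over all genes, allow a bound on the size of the difference. The 95% confidence interval of the log2 fold change lay within 1 of 0, a 2-fold difference, in 36 of the 38 genes and within 0.5 of 0 in 19. It lay above 0 in the 4 genes named above and below 0 in 0. Among the roles with more than 1 gene, log2 fold changes with all 4 hearts ranged most widely in the small TIM chaperones and least in the TOM complex.

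**Figure D2:**
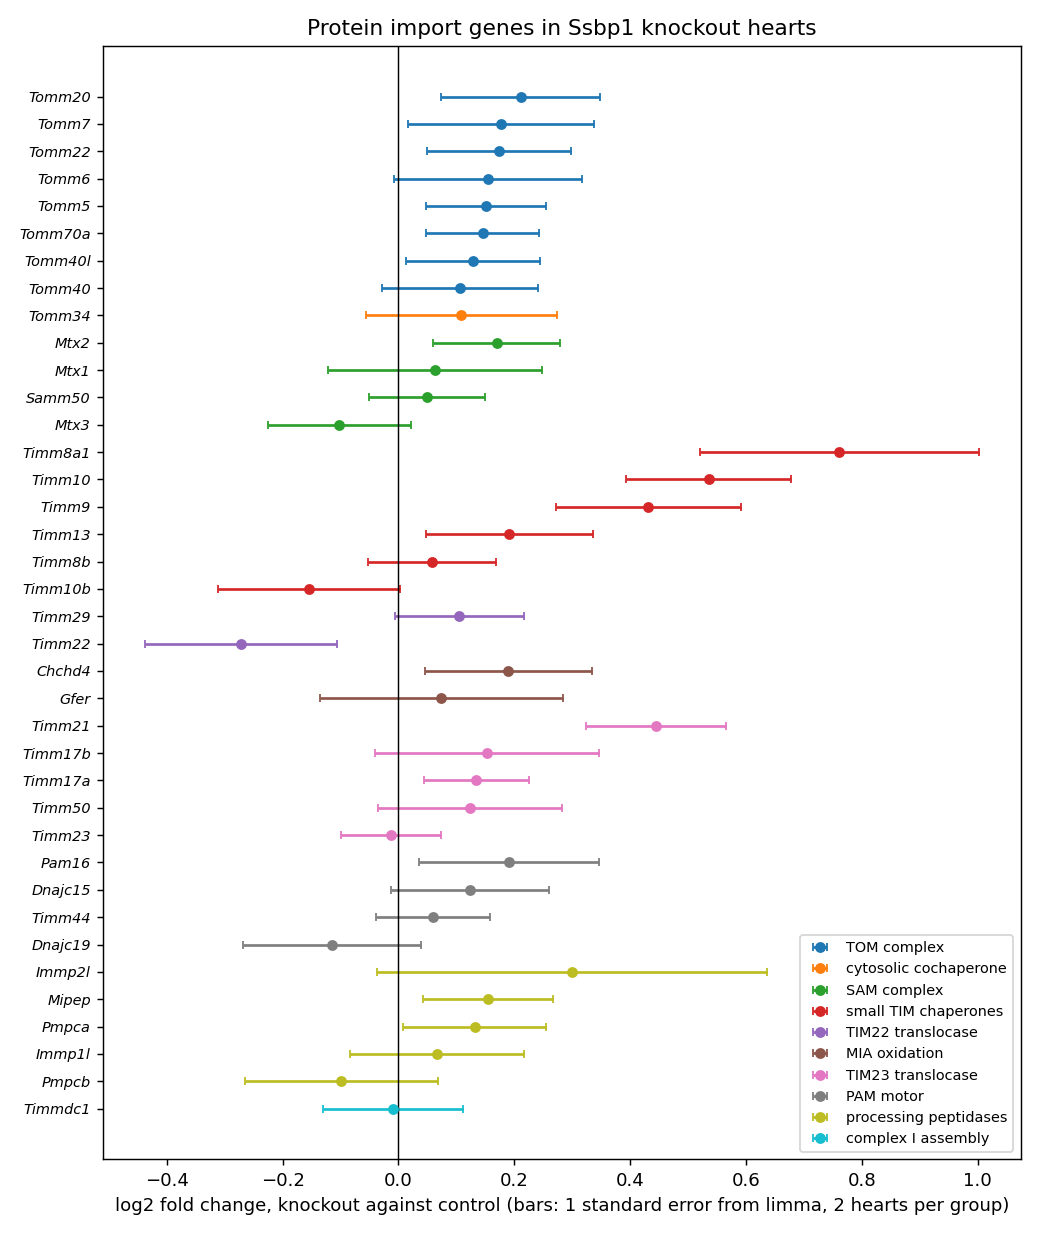
Log2 fold change, knockout against control, of the 38 import genes that passed the filter, coloured by role, with bars of 1 standard error from limma (2 hearts per group). The 8 TOM genes lie between 0.11 and 0.21, Timm8a1, Timm10, Timm21 and Timm9 lie between 0.43 and 0.76, and Timm22 is lowest at -0.27.

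The TOM complex, the entry gate of the outer membrane, had a positive difference in 8 of its 8 genes that passed the filter, from 0.11 to 0.21 on the log2 scale with a median of 0.15, and none of them passed the test. Over all genes tested 50.5% had a positive difference. Tomm20, a receptor for precursors with a cleavable presequence, stood at 661 and 569 normalized counts in the controls and at 650.0 and 775 in the knockouts. The groups overlapped, since knockout replicate 1 was below control replicate 1 (log2 fold change 0.21, SE 0.14, limma adjusted p = 0.876). Tomm70a, the receptor for carrier precursors brought by cytosolic chaperones, stood at 1035 and 1101 in the controls and at 1139 and 1224 in the knockouts. Both knockouts were above both controls (0.15, SE 0.097, limma adjusted p = 0.882). The channel protein Tomm40 was at 453 and 379.9 in the controls and at 428 and 465 in the knockouts. Its paralog Tomm40l was at 448 and 496 against 526 and 504, so that Tomm40 overlapped between the groups and Tomm40l did not (0.11 and 0.13, limma adjusted p = 0.941 and 0.909). Tomm5, a small subunit of the channel, was at 529 and 523 against 594 and 575 (0.15, SE 0.10, limma adjusted p = 0.883). The 5 TOM genes without overlap were Tomm70a, Tomm5, Tomm22, Tomm40l and Tomm6, and the 3 with overlap were Tomm20, Tomm7 and Tomm40, where 18.1% of all genes tested had both knockouts above both controls. Tomm20l, a paralog of Tomm20, did not pass the filter and had 1 read in all, a normalized count of 0.977 in control replicate 1 and 0 in the other hearts. Tomm34, a cytosolic cochaperone that binds Hsp70 and Hsp90, stood at 134 and 158 in the controls and at 159 and 155 in the knockouts, which overlap (0.11, SE 0.17, limma adjusted p = 0.952).

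The SAM complex, which inserts barrel proteins into the outer membrane, had log2 fold changes from -0.10 to 0.17 with a median of 0.056. Of its 4 genes 3 had a positive and 1 a negative difference. Mtx2, a metaxin on the cytosolic face of the complex, stood at 562 and 609 normalized counts in the controls and at 637 and 680.1 in the knockouts, with no overlap (log2 fold change 0.17, SE 0.11, limma adjusted p = 0.873). Its relative Mtx3 stood at 299 and 306 in the controls and at 286 and 278 in the knockouts, the opposite order, also with no overlap (-0.10, SE 0.12, limma adjusted p = 0.936). Mtx1 overlapped, at 126 and 108 against 130.2 and 114 (0.063, SE 0.18, limma adjusted p = 0.972). Samm50, the barrel at the centre of the complex, was at 1256 and 1412 in the controls and at 1399 and 1358 in the knockouts, both within the range of the controls.

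The small TIM chaperones escort hydrophobic precursors across the intermembrane space, and they held 3 of the 4 import genes at an unadjusted p under 0.05. Timm10 and Timm9 form the main hexameric chaperone. Timm10 stood at 206 and 228 normalized counts in the controls and at 335 and 295 in the knockouts, and the lowest knockout was above the highest control by more than the spread within either group. Its log2 fold change was 0.54 (SE 0.14, 1.45-fold), with an unadjusted limma p of 0.00877 and an adjusted p of 0.664. Timm9 stood at 116 and 127 in the controls and at 161 and 168 in the knockouts, again with a gap between the groups wider than the spread within them. Its log2 fold change was 0.43 (SE 0.16, 1.35-fold), with an unadjusted limma p of 0.0343 and an adjusted p of 0.798. The partner genes of this hexamer thus both had higher values in both knockouts, and neither passed the test over all genes. Both are described for their small p, so the gaps are no further support.

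Timm8a1, whose protein pairs with Timm13 in the second small TIM hexamer and whose human counterpart is mutated in Mohr-Tranebjaerg deafness-dystonia syndrome, stood at 113 and 80.8 normalized counts in the controls and at 142 and 187 in the knockouts. The groups did not overlap, but the gap between them was narrower than the spread within either. The log2 fold change was 0.76 (SE 0.24, 1.69-fold), with an unadjusted limma p of 0.0188 and an adjusted p of 0.750. The transcribed pseudogene Gm9797 is at least 95% identical to Timm8a1 over at least 200 bases, and the authors' quantification could split reads between them. Gm9797 stood at 46.9 and 62.0 in the controls and at 41.2 and 19.1 in the knockouts, the opposite direction. The sum of both was 160 and 143 against 183 and 207, and its log2 fold change was 0.36 (SE 0.16), with an unadjusted limma p of 0.0644 and an adjusted p of 0.806. Timm8a1 took 56.6% to 70.7% of this sum in control hearts and 77.5% to 90.7% in knockout hearts. Timm13 also had both knockouts above both controls, with a log2 fold change of 0.19 (SE 0.14, limma adjusted p = 0.891). Timm8b, the paralog of Timm8a1, overlapped between the groups at 492 and 525 against 544 and 515 (0.058, SE 0.11, limma adjusted p = 0.962). Timm10b, a small TIM bound to the TIM22 complex, stood at 199 and 191 in the controls and at 161 and 190.5 in the knockouts. Its knockouts were lower, replicate 2 by less than 1 count (-0.15, SE 0.16, limma adjusted p = 0.923), and the overlapping gene Gm45799 had 7.82 and 10.8 against 26.4 and 10.7. Timm8a2 did not pass the filter, with 0 and 2.69 in control and 0 and 0.765 in knockout hearts.

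The sequences before the 3 small TIM genes at an unadjusted p under 0.05 are shown because these genes had the largest positive differences of their group, and they come from RefSeq on GRCm38.p6. Each is written 5′ to 3′ on the strand of the gene in lower case, and the letters CACGTG, the E-box read by many basic helix-loop-helix factors, are in capitals. Positions are counted from the RefSeq start of the transcript, whose first base is 1. Each sequence begins 250 bases before that start and ends before the start of the gene in the GENCODE annotation, which lies 24 bases ahead of the RefSeq start in Timm10, 9 bases ahead in Timm9 and 195 bases ahead in Timm8a1. For Timm10 (chr2:84826771-84826996, plus strand), Timm9 (chr12:71136685-71136925, minus strand) and Timm8a1 (chrX:134541866-134541920, minus strand) they are as follows.
Timm10: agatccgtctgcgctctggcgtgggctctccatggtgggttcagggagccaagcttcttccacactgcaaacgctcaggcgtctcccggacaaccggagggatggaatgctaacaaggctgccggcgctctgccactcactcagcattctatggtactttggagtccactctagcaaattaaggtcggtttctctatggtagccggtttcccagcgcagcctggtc
Timm9: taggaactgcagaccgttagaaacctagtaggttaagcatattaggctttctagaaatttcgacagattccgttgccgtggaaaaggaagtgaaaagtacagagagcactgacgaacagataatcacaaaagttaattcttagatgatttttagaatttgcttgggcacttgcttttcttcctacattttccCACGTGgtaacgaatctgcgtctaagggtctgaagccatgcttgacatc
Timm8a1: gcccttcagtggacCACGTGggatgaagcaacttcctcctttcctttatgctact

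The E-box letters were found in each of these 3 windows when the first 50 transcribed bases were read as well. In Timm10 the single match begins at position 29, in the stretch ggaagtgaccCACGTGcttcttattt (chr2:84827039-84827064). In Timm9 a match begins at position -58 and another spans the start. In Timm8a1 a match begins at position -236 and another at position 25, in the stretch gtcacccagaCACGTGaaggtcggca (chrX:134541631-134541656). The bases before Timm10 were 57.5% G or C, those before Timm9 40.7% and those before Timm8a1 50.9%. The motif was chosen after the sequences had been seen, and a match is a description of letters, not of binding.

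The TIM22 translocase, which inserts carriers with several membrane spans into the inner membrane, had one gene on each side. Timm22, its channel, stood at 200.4 and 214 normalized counts in the controls and at 190.3 and 155 in the knockouts. Both knockouts were below both controls, and the log2 fold change of -0.27 was the lowest among the import genes with all 4 hearts (SE 0.17, 95% confidence interval -0.67 to 0.13, limma adjusted p = 0.862). It was -0.42 without knockout replicate 1 and -0.12 without knockout replicate 2, where Timm10b at -0.27 and Dnajc19 at -0.26 were lower, and without control replicate 1 Pmpcb at -0.32 was lower than Timm22. Timm29, a subunit of the same complex found in animals, stood at 391 and 388 in the controls and at 423 and 415 in the knockouts, with no overlap (0.11, SE 0.11, limma adjusted p = 0.926). In the MIA pathway, which folds cysteine-rich proteins of the intermembrane space by oxidation, the small TIM proteins themselves are substrates. Its oxidoreductase Chchd4 (MIA40) stood at 167 and 174 in the controls and at 190.3 and 199 in the knockouts, with no overlap (0.19, SE 0.14, limma adjusted p = 0.894). Gfer, the sulfhydryl oxidase that recycles it, overlapped at 108 and 113 against 136 and 100.2 (0.074, SE 0.21, limma adjusted p = 0.972).

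**Figure D3:**
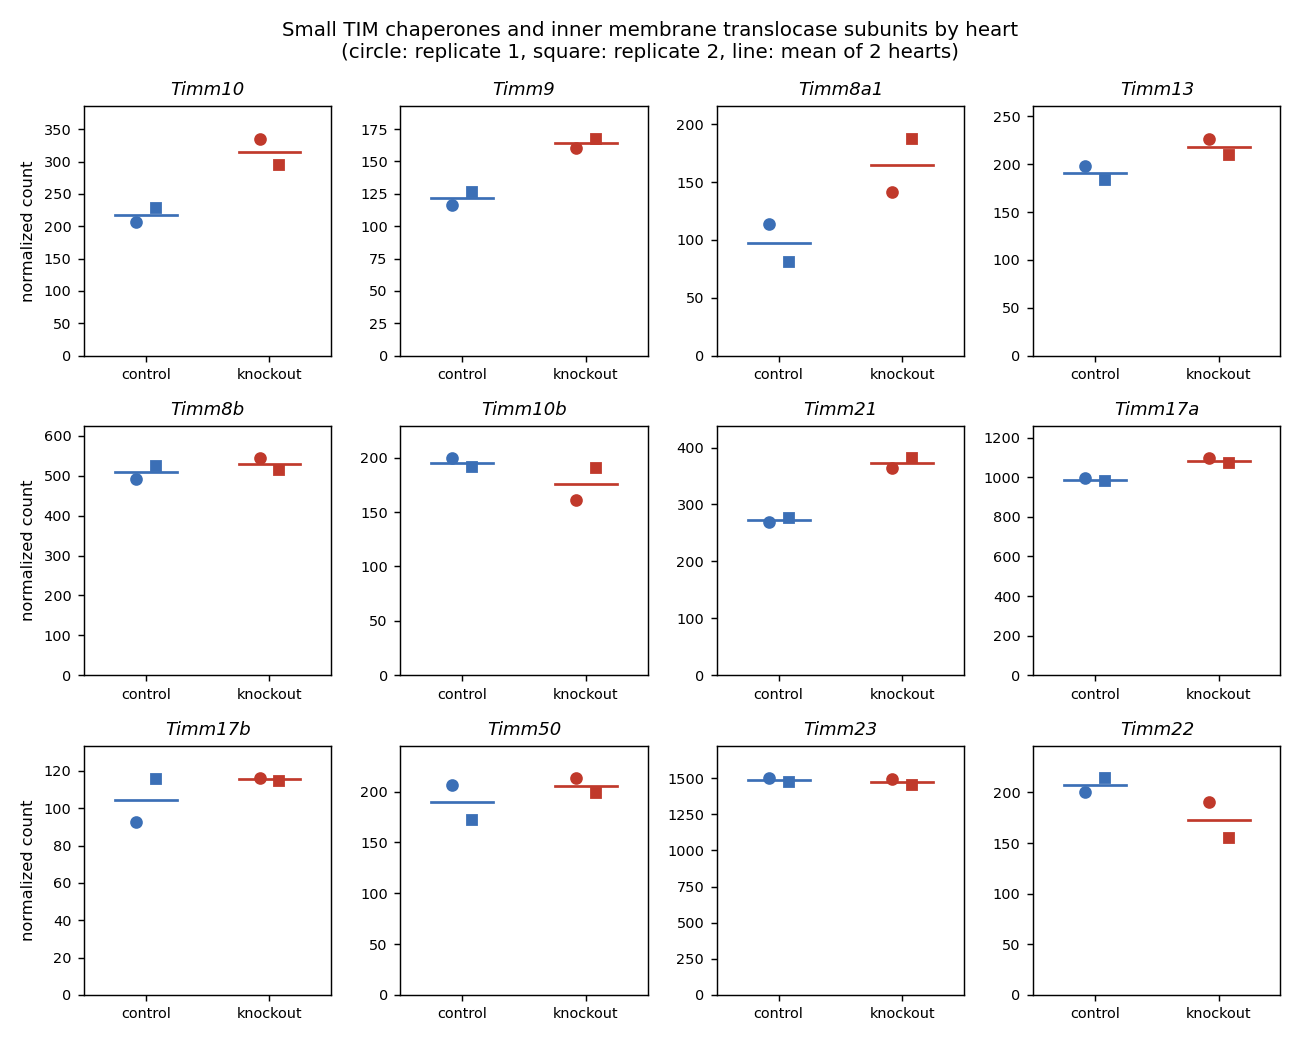
Normalized counts of 12 small TIM, TIM22 and TIM23 genes in each heart, with controls in blue, knockouts in red, replicate 1 as a circle, replicate 2 as a square and a line at the mean of 2 hearts. Timm10, Timm9 and Timm21 have a wide gap between the groups, Timm8a1 has a gap beside a wide spread within each group, Timm23 overlaps at 1454 to 1501, and in Timm22 both knockouts lie below both controls.

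The TIM23 translocase is the inner membrane gate for precursors with a presequence, and 1 of its subunits was at an unadjusted limma p under 0.05. Timm21, which links the TOM and TIM23 complexes and hands on subunits of the respiratory chain during their assembly, stood at 269.7 and 276 normalized counts in the controls and at 363 and 381 in the knockouts. The gap between the groups was several times the spread within them. Timm21 is described for its small p, so this gap is no further support. Its log2 fold change was 0.45 (SE 0.12, 1.36-fold), with an unadjusted limma p of 0.00972 and an adjusted p of 0.664. Timm17a, which lines the channel, stood at 994 and 979 in the controls and at 1095 and 1072 in the knockouts, a small difference with no overlap (0.13, SE 0.091, limma adjusted p = 0.882). Its paralog Timm17b overlapped, at 92.8 and 116 against 116 and 115 (0.15, SE 0.19, limma adjusted p = 0.940). Timm23 itself, the core of the translocase, stood at 1501 and 1474 in the controls and at 1497 and 1454 in the knockouts. The groups overlapped and the 95% confidence interval of the log2 fold change of -0.012 ran from -0.22 to 0.20, with a sign that changed under other scalings between libraries. Timm50, the receptor of the complex, had a log2 fold change of 0.12 and overlapped.

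The PAM motor pulls precursors into the matrix with the chaperone mtHsp70 and its J proteins. Pam16, a J-like subunit, stood at 162 and 190.0 normalized counts in the controls and at 197 and 204 in the knockouts, with no overlap (log2 fold change 0.19, SE 0.15, limma adjusted p = 0.900). A near-identical gene, Gm9803, had 2.93 and 14.8 against 7.41 and 10.7. Dnajc15, a J protein of the motor, overlapped at 527 and 434 against 543 and 499.6 (0.12, SE 0.14, limma adjusted p = 0.930). Dnajc19, the J protein whose human counterpart is mutated in a dilated cardiomyopathy with ataxia, also overlapped, at 326 and 289.7 in the controls and at 257 and 314 in the knockouts (-0.11, SE 0.15, limma adjusted p = 0.945). Timm44, which tethers mtHsp70 to the channel, had both knockouts above both controls by a small margin, with a log2 fold change of 0.060.

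The processing peptidases remove targeting signals after import. Mipep, the intermediate peptidase of the matrix, stood at 426 and 462 normalized counts in the controls and at 491 and 497 in the knockouts, and it was the single peptidase with no overlap (log2 fold change 0.15, SE 0.11, limma adjusted p = 0.890). Pmpca, a subunit of the main matrix peptidase, stood at 1015 and 1137 in the controls and at 1287 and 1077 in the knockouts (0.13, SE 0.12, limma adjusted p = 0.914). Its partner Pmpcb stood at 1092 and 1489 against 1287 and 1102 (-0.099, SE 0.17, limma adjusted p = 0.956), so that the control hearts differed from each other more than the groups did. The inner membrane peptidase genes overlapped as well. Immp1l was at 247 and 302 in the controls and at 294 and 278 in the knockouts (0.067, SE 0.15, limma adjusted p = 0.968). Immp2l was at 54.7 and 57.9 against 95.6 and 50.5, with one knockout above and one below both controls (0.30, SE 0.34, limma adjusted p = 0.933, and -0.154 without knockout replicate 1). Its 50.5 was the lowest value of any of the 38 genes in any heart. Timmdc1, a membrane protein related to the Tim17 family that acts in the assembly of complex I, stood at 323 and 346 in the controls and at 332 and 333 in the knockouts, both within the range of the controls (-0.0099, SE 0.12, limma adjusted p = 0.994).

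Partners of the machinery that the naming rule left out were counted as a separate list, written with earlier results of these data known. Its shares are descriptions and no independent support for those of the import genes. Of 18 such genes tested, among them the matrix and cytosolic chaperones, 0 were called and 15 had a log2 fold change above 0 (83.3%, against 50.5% of all genes tested), with a median of 0.10. Both knockouts were above both controls in 9 and below in 0, while these shares were 18.1% and 17.5% over all genes. Hspa9, which encodes mtHsp70, the engine of the PAM motor, stood at 5728 and 5975 normalized counts in the controls and at 8177 and 8047 in the knockouts. The groups were far apart relative to their spread, with a log2 fold change of 0.47 (SE 0.076), an unadjusted limma p of 0.000724 and an adjusted p of 0.261. Hspa9 is named for its small p, so this gap is no further support. Grpel2, a nucleotide exchange factor for mtHsp70, was at 241 and 209 against 273 and 314 (0.38, SE 0.15, limma adjusted p = 0.806). Hsp90aa1, a cytosolic chaperone that delivers precursors to Tomm70a, was at 1158 and 1254 against 1392 and 1652 (0.33, SE 0.12, limma adjusted p = 0.788).

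Several import proteins have a paralog or a fixed partner, and the ratio of both genes within a heart does not depend on the scaling between libraries. Of 9 such ratios 4 did not overlap between the groups, while 35.6% of all single genes tested did not overlap in one direction or the other. The count of 4 is thus not read as a result about these pairs. With 2 hearts against 2 the exact permutation test (two-sided) cannot go below p = 0.333, which these 4 reached, with an adjusted p of 0.749 over the 9 ratios. The ratio of Timm10b to Timm10 was 0.967 and 0.840 in control against 0.482 and 0.645 in knockout hearts, a log2 difference of -0.69. The ratio of Timm8a1 to Timm8b was 0.231 and 0.154 in control against 0.261 and 0.364 in knockout hearts, a log2 difference of 0.71 that was 0.42 without control replicate 2 and carries the limit from Gm9797 given above. Mtx3 to Mtx2 was 0.532 and 0.502 against 0.449 and 0.408, a log2 difference of -0.27. Pmpca to Pmpcb was 0.930 and 0.764 in control against 1.0 and 0.978 in knockout hearts, a log2 difference of 0.23 that fell to 0.088 without control replicate 2. The ratios of Timm17a to Timm17b, Tomm40l to Tomm40, Dnajc15 to Dnajc19, Mtx1 to Mtx2 and Immp1l to Immp2l overlapped, with log2 differences from -0.24 to 0.24. The channel isoforms Timm17a and Timm17b kept a ratio between 8.45 and 10.7 in the 4 hearts.

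Between genes, levels were compared in the control hearts per kb of merged exons. The highest were Timm8b at 949 and 1014 normalized counts per kb, Timm23 at 841 and 825 and Tomm5 at 609 and 602, whose ranges did not overlap. The lowest were Timm9 at 27.2 and 29.6, Immp2l at 29.9 and 31.6 and Mtx1 at 35.2 and 30.1, of which Immp2l and Mtx1 overlapped. The highest mean was 34.6 times the lowest. In this order 23 of the 37 neighbouring pairs overlapped in their ranges over the 2 controls, so that most neighbours cannot be ranked. The order also depends on the length used. Per kb of the median coding transcript Timm23 held rank 1, Timm8b rank 4 and Tomm5 rank 5, while Timm9 moved from rank 38 to rank 26 and Mtx1 from rank 36 to rank 27. The genes of one complex did not share a level, since the TOM complex ran from 91.9 per kb for Tomm40l to 606 for Tomm5 and the small TIM chaperones from 28.4 for Timm9 to 982 for Timm8b.

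**Figure D4:**
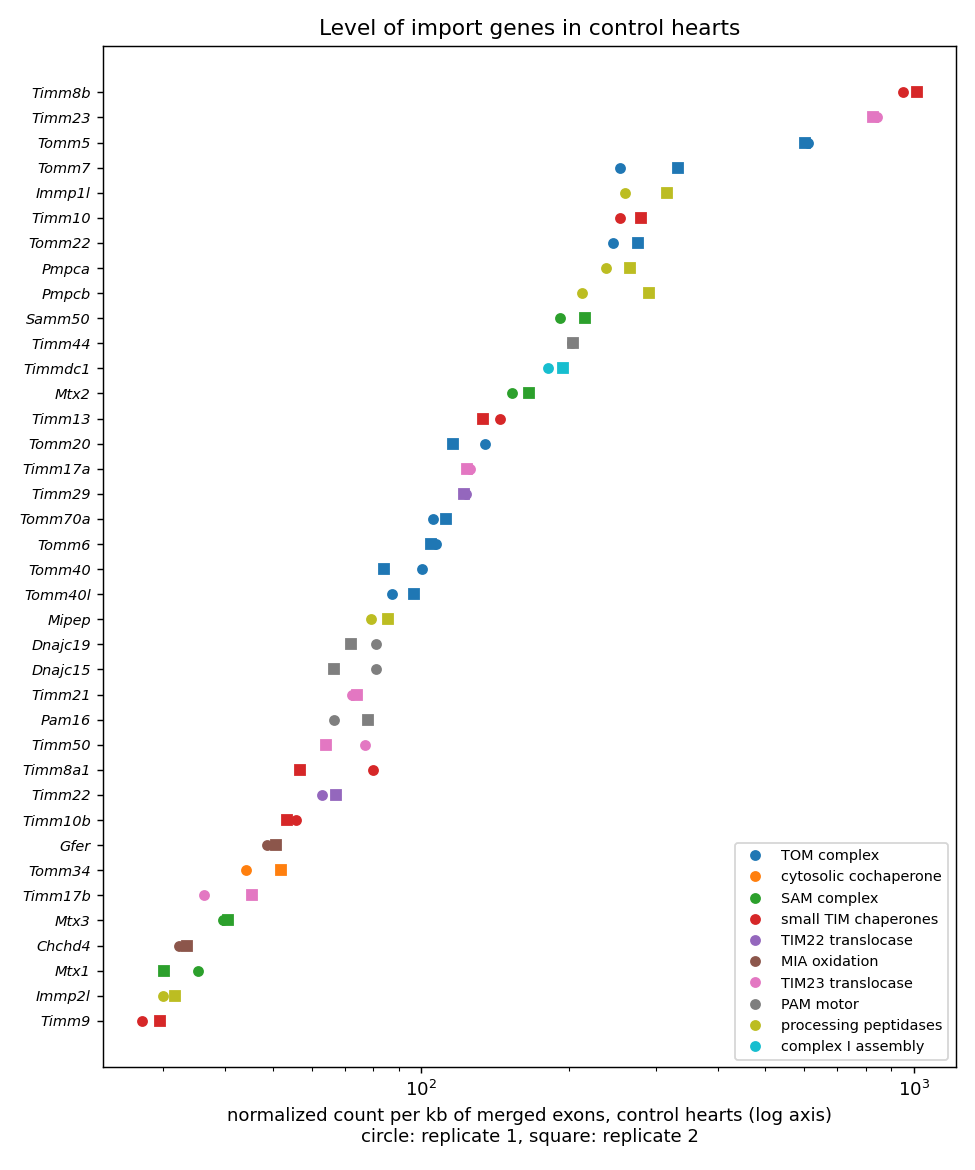
Normalized count per kb of merged exons of the 38 import genes in the control hearts on a log axis, ordered by their mean and coloured by role, with replicate 1 as a circle and replicate 2 as a square. Levels run from 28.4 for Timm9 to 982 for Timm8b, and most neighbours overlap.

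Promoter windows of 300 bases (250 before and 50 after the RefSeq start) were found for 37 of the 40 genes, the others being Timm21, Tomm40l and Tomm7. Motifs were searched on both strands, and the share of import genes with a match is set beside that of 27025 genes with a window. The element TGATGNAA, read by ATF4, a factor of the mitochondrial stress response, occurred in 0 of the 37 genes, in 4.51% of all genes and in 2.75% of the genes tested. The NRF1 core GCGCANGC occurred in 5 (13.5%, against 11.2% of all genes and 21.7% of the genes tested), namely Chchd4, Pam16, Timm13, Timm8b and Tomm20, and the ERR element TCAAGGTCA in Timm8b alone (2.7%, against 0.466% and 0.337%). The YY1 element AAGATGGCG occurred in 4 (10.8%, against 1.64% of all genes and 3.45% of the genes tested), namely Immp1l, Mtx1, Mtx3 and Timm50, none of which was at an unadjusted p under 0.05. The E-box letters CACGTG occurred in 6 (16.2%, against 8.09% of all genes and 11.5% of the genes tested), namely Timm10, Timm9, Timm8a1, Tomm20, Tomm20l and Mtx3. This motif was chosen after the windows of Timm10, Timm9 and Timm8a1 had been seen. Its share is therefore no support for an excess among the import genes. Timm10, Timm9, Timm8a1 and Tomm20 had a positive log2 fold change, although Tomm20 overlapped between the groups (0.21). Mtx3 had a negative one (-0.10), and Tomm20l did not pass the filter. Timm10, Timm9 and Timm8a1 had been chosen for their positive differences, and 81.6% of the import genes tested had a positive difference. The signs are thus no result about the E-box. A link between these letters and the levels was not tested. No match says only that these letters are not in this window.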

How the data were processed

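Strand-specific TruSeq libraries were made from whole-heart RNA. The authors aligned reads to GRCm38.p6, with nuclear copies of mtDNA masked, by STAR 2.7.3a, quantified them by strand with Salmon 1.1.0, summarised them by gene and divided each library by a DESeq2 1.26.0 size factor. The deposited values are this signal, a normalized count per gene. Of them 100% were whole multiples of the value of 1 read within 0.001 reads, which gave the depth (19716305 to 25682093 reads). The deposited file of the authors' own comparison (means, fold changes and p-values) was not used, nor were SAMtools 1.10 and bedtools 2.26.0 coverage data.

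Groups came from the labels, which give biological replicate numbers. The limma p-values rest on the spread between hearts of a group, and limma draws the variance of each gene towards a trend over all genes tested. They thus do not measure the spread of these 4 mice alone. Genes with at least 10 normalized counts in at least 2 of 4 libraries (14522) were tested with limma 3.58.1 (R 4.3.3) in a two-sided test on log2(normalized count + 1). A mean-variance trend was used, and p-values were adjusted by Benjamini-Hochberg over all genes (threshold 0.05). A fold change on this scale understates that of low genes. Paralog ratios had exact permutation tests. Genes named were those at an unadjusted p under 0.05, the 2 with the smallest p in each role, the 3 highest and 3 lowest levels per kb, paralog pairs and genes below the filter; others were named to complete a count. The members and lists were chosen with earlier results of these data known. Exon lengths came from GENCODE vM21 on GRCm38, and near-identical transcripts (at least 95% over 200 bases) were found for 10 import genes. Alternatives covered pseudocount, filter, scaling, replicate block, limma settings, the recovered reads in edgeR 4.0.16 or in DESeq2 1.42.0, and each library left out; the sum with Gm9797, the other length and the E-box were added after seeing the data. The statistical scripts were tested on simulated data. Protein features that had been planned were not analysed here.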

Additional observations from a re-analysis of the deposited data

Results flagged for a closer look

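The mouse numbered 585H, whose title and genotype label contradict each other and which entered no comparison, had values above both control hearts for all 4 import genes at an unadjusted p under 0.05, by more than the controls differed from each other. It stood at 313 normalized counts for Timm10, 400.4 for Timm21, 186 for Timm8a1 and 155 for Timm9. These genes were picked from the compared hearts, and no test was made with this mouse. Of the 38 import genes mouse 585H was above both controls in 18 and below both in 11. The same shares over all genes were not computed, so the 4 values do not assign this mouse to a group.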

How the results depend on the processing

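The import genes called numbered 0 higher and 0 lower in the test as reported and in all 16 alternatives run, and the lowest adjusted p of any import gene was 0.294, for Timm8a1 without control replicate 1. The median log2 fold change of the import genes stayed between 0.0944 and 0.145, and between 0.0944 and 0.137 when a library was left out. The count at an unadjusted p under 0.05, 4 in the test as reported, was 1 to 4 with a library left out (3 without control replicate 1, 2 without knockout replicate 1 and 1 without knockout replicate 2), 3 with Gm9797 added to Timm8a1 and 3 in DESeq2. The replicate numbers only name mice. With the replicate block it was 3 with 0 called, while over all genes 23 were called higher and 7 lower against 11 and 6 without it; deviations of same-numbered hearts correlated at 0.314 over 14522 genes. Of 496 values of named genes under an alternative 19 changed sign, and none of these genes passed the test in any setting. With nuclear totals made equal Timmdc1 was at 0.0043 and Timm23 at 0.0021, and with TMM at 0.0051 and 0.0029, where the median of all genes moved to 0.016 and 0.017. With each library left out in turn, the values ran from -0.059 to 0.039 for Timmdc1, -0.033 to 0.0090 for Timm23, -0.0080 to 0.226 for Tomm34, -0.0051 to 0.311 for Timm17b, -0.076 to 0.210 for Immp1l, -0.020 to 0.232 for Tomm40, -0.017 to 0.263 for Dnajc15, -0.258 to 0.029 for Dnajc19, -0.322 to 0.125 for Pmpcb, -0.049 to 0.175 for Mtx1, -0.143 to 0.292 for Gfer and -0.154 to 0.753 for Immp2l. Immp2l turned negative without knockout replicate 1. The cause was not tested beyond the construction of each alternative. Where a group is left with 1 heart, it is assumed to vary like the other group. Of 45 values of the paralog ratios under an alternative 6 changed sign, all in ratios that overlapped between the groups. With each library left out in turn the log2 difference ran from -0.190 to 0.151 for Timm17a to Timm17b, -0.177 to 0.222 for Tomm40l to Tomm40, -0.278 to 0.065 for Mtx1 to Mtx2 and -0.657 to 0.185 for Immp1l to Immp2l. Depth limits Tomm20l and Timm8a2, whose few reads allow no comparison.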

Other observations

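Of the 38 import genes, mouse 585H was above both controls in 18 and below both in 11, and mouse 586H was above both in 12 and below both in 15. The same shares over all genes were not computed for these mice. The counts are therefore not a result about the import genes and do not assign either mouse to a group. Mouse 586H stood at 228 normalized counts for Timm10, 249 for Timm21, 113 for Timm8a1 and 106 for Timm9. Mitochondrial transcripts took 56.2% of the reads in mouse 585H and 63.6% in mouse 586H.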
